A study of Mus musculus with 6 samples.

Results

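The genes described here are HSP70 and HSP90 chaperones, in retinas of *Mll1KO* and wild-type (WT) mice. They were chosen by name as *Hspa8*, *Hspa4*, *Hspa4l*, *Hspa5*, *Hspa9*, *Hsp90aa1*, *Hsp90ab1*, *Hsp90b1*, *Hsph1* and *Dnajb1*, and all 10 of these 10 names are among the 11339 genes of the deposited table. *Hspa8* was selected on its own values in these libraries, as the gene with the second largest decrease of the table, so its difference between genotypes is given as a description with no test. The table holds genes that passed the authors' minimum of reads, so the 10 genes are those that passed it and no member was lost to it. The study asked how loss of the histone H3K4 methyltransferase MLL1 changes gene expression in the maturing retina. For each genotype 3 samples were sequenced, each made from a pair of retinas, with mice of both sexes used. *Mll1KO* mice are labelled MLL1 fl/fl, Chx10-Cre on the C57Bl6/J strain at P14: exons 3 and 4 of *Mll1* are floxed, and Cre is expressed in retinal progenitors, so cells of other origin keep the gene. WT mice are labelled wild type, C57Bl6/J, P14, and are not littermates without Cre, so that an effect of Cre or of litter and an effect of *Mll1* loss cannot be told apart.

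HSP70 proteins bind exposed stretches of unfolded protein in cycles of ATP hydrolysis that J-domain proteins start and nucleotide exchange factors, among them the HSP110 proteins, end. HSP90 proteins act later, on near-native clients such as kinases and receptors that HSP70 hands over with the help of cochaperones. In photoreceptors and other retinal neurons these machines fold new protein, and the constitutive HSP70 encoded by *Hspa8* also strips clathrin from vesicles and delivers proteins to lysosomes.

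Values of single libraries are given in the order a, b, c within each genotype. The genotypes were first checked with *Kmt2a*, the current symbol of *Mll1* (ENSMUSG00000002028, GRCm38 chromosome 9 from 44803355 to 44881296, minus strand). Its RPKM, the reads scaled to gene length and library total, was 36.1, 36.9 and 34.6 in WT and 22.9, 20.4 and 22.3 in *Mll1KO*. The 3 *Mll1KO* values lay below the 3 WT values, at 60.9% of the WT mean. This RPKM is taken over the whole gene, while Cre removes the floxed exons only. RNA of recombined alleles can thus still add reads, and the value does not measure how much intact *Mll1* RNA was left. The paper reports a lower share of unrecombined *Mll1* RNA, by PCR with primers in the excised region. The tissue was checked with photoreceptor markers, of which 10 of 10 for rods and 7 of 7 for cones were listed. Defining markers of the retinal pigment epithelium such as *Rpe65* and *Best1* were not listed, but 3 of 8 genes of its list were, the pigment genes *Pmel* (57.2 RPKM in WT), *Dct* (48.2) and *Tyrp1* (17.5). Of 8 lens genes *Cryaa* was listed, at up to 32.1 RPKM (*Mll1KO* sample a), and *Mip* and *Crybb2* were not. Library totals recovered from the table were 23836033, 19777206 and 19323511 for WT, and 23348923, 19855963 and 17961098 for *Mll1KO*. Per library the least covered gene had 90 to 120 reads, and the 10 chaperones had between 881 and 16608.

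In *Mll1KO* retinas *Hspa8* RNA stood at 26.95% of its WT mean, while no other chaperone of the 10 moved by a comparable amount. The mean RPKM of the other 9 in *Mll1KO* lay between 96.4% (*Hsph1*) and 115.9% (*Hspa4l*) of the WT mean. *Hspa4l*, 1 of 3 HSP110 genes among them, was higher in *Mll1KO*, and the other 8, with the HSP110 genes *Hspa4* and *Hsph1*, did not pass the test. That is 1 of 9 called by limma at an adjusted p under 0.05 (11.1%), 1 in the higher and 0 in the lower direction, where limma called 23.3% of all 11339 genes, 8.81% as higher and 14.5% as lower. At an unadjusted p under 0.05 the same counts, 1 and 0, were found, where all genes gave 1543 and 2643, and limma-voom on reads called 1 of the 9 and 2903 of all genes. In 2 of the 9, *Hspa4l* and *Hspa9*, the values of the genotypes did not overlap, against 41.1% of all genes. The split of all genes moved with the scaling, to 1257 higher and 1163 lower with TMM factors. Nothing particular to the chaperones is read from these shares. The median log2 fold change of the 9 was 0.03 and that of all genes -0.03. In bulk RNA, fewer cells of a type and less RNA per cell cannot be told apart.

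*Hspa8* (ENSMUSG00000015656, GRCm38 chromosome 9 from 40800984 to 40810087, plus strand) encodes the constitutive cytosolic HSP70, HSC70. Its RPKM was 72.55, 66.51 and 67.38 in WT and 19.19, 18.36 and 18.1 in *Mll1KO*. The genotypes were far apart and the replicates close together, with the highest *Mll1KO* library far under the lowest WT library. The means were 68.8 ± 3.27 (SD, n = 3) and 18.6 ± 0.569 (SD, n = 3), a level 3.71-fold lower. Behind these values stood 7187, 5467 and 5411 reads for WT against 1862, 1515 and 1351 for *Mll1KO*. Fold changes here, unless an alternative is named, are on the log2(RPKM + 1) scale, which understates the change of weakly expressed genes. On this scale the difference was -1.84. From the means without the added 1 it was -1.89. Across the alternative settings, which include other pseudocounts and limma-voom on reads and so other scales, it ranged from -2.16 to -1.65.

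The rank on which *Hspa8* was selected had *Kif19a*, a kinesin gene, just above it and *Mab21l2* and *Pmel* just below. The RPKM of *Kif19a* was 18.0 ± 1.68 in WT and 4.26 ± 0.503 in *Mll1KO* (SD, n = 3), a log2 fold change of -1.85. For *Mab21l2* the RPKM was 29.1 ± 2.04 in WT and 8.68 ± 1.47 in *Mll1KO* (SD, n = 3), with -1.65 on the log2 scale. *Pmel*, a pigment cell gene with a log2 fold change of -1.48, followed another pattern, 57.14, 15.12 and 99.39 in WT and 9.37, 34.0 and 10.98 in *Mll1KO*, so that its genotypes overlapped. The WT mean of *Hspa8* was above those of these neighbours and the 491st highest of the table.

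Its closest relatives among the cytosolic HSP70 genes, *Hspa1a*, *Hspa1b* and *Hspa2*, were expressed at far lower levels than *Hspa8* in WT. This does not hold for the divergent family member *Hspa12a*, named after its values were seen, which was at 52.7 ± 1.99 RPKM in WT and 54.2 ± 0.0813 RPKM in *Mll1KO* (SD, n = 3; log2 fold change 0.04, limma adjusted p = 0.507), and so above *Hspa8* in *Mll1KO*. *Hspa1a*, a stress-inducible HSP70, had an RPKM of 3.309, 3.272 and 3.593 in WT and 4.417, 3.768 and 4.034 in *Mll1KO*. Its neighbour *Hspa1b*, nearly identical in sequence, had 4.355, 5.051 and 4.985 in WT and 4.676, 5.678 and 5.125 in *Mll1KO*. For *Hspa2*, best known from the testis, the RPKM was 4.528, 4.374 and 4.6 in WT and 4.062, 3.737 and 3.425 in *Mll1KO*. The *Mll1KO* values lay above the WT values in *Hspa1a* and below them in *Hspa2*. In *Hspa1b* the genotypes overlapped, with 2 of 3 *Mll1KO* values above every WT value. The log2 fold change was 0.21 for *Hspa1a* (limma adjusted p = 0.0404) and -0.22 for *Hspa2* (limma adjusted p = 0.0308). *Hspa1b* was at 0.09 (95% interval -0.08 to 0.25, limma adjusted p = 0.438). Neither call was firm: that of *Hspa1a* was lost with limma-voom on reads (adjusted p = 0.0525, range over the alternatives to 0.483), and its sign turned with libraries scaled to equal rod RNA, while that of *Hspa2* was lost with TMM factors (adjusted p = 0.0515, range to 0.108).

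Summed over *Hspa8*, *Hspa1a*, *Hspa1b* and *Hspa2*, without the divergent *Hspa12a* and *Hspa12b*, the RNA was 84.74, 79.21 and 80.56 RPKM in WT and 32.34, 31.54 and 30.68 RPKM in *Mll1KO*. *Hspa8* made up 85.6%, 84.0% and 83.6% of this sum of 4 genes in WT, and 59.3%, 58.2% and 59.0% in *Mll1KO*. The sum without *Hspa8* was 12.7 ± 0.493 RPKM in WT and 13.0 ± 0.338 RPKM in *Mll1KO* (SD, n = 3), a difference within the spread of the replicates. The sum in *Mll1KO* was 38.7% of WT with *Hspa8* and 102.2% without it.

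The HSP110 proteins, distant relatives of HSP70 that exchange its nucleotide, are encoded by *Hspa4*, *Hspa4l* and *Hsph1*. *Hspa4l* (ENSMUSG00000025757, chromosome 3 from 40744495 to 40796103, plus strand) had an RPKM of 23.1, 22.93 and 22.43 in WT and 25.21, 27.3 and 26.82 in *Mll1KO*. Each *Mll1KO* sample was above each WT sample, by a margin small beside the loss of *Hspa8*. The log2 fold change was 0.20 (standard error 0.04, 95% interval 0.11 to 0.30, limma adjusted p = 0.00842). Scaling the libraries to equal rod RNA ended this call and turned its sign to -0.11 (adjusted p = 0.067, with 0.00232 to 0.067 over all alternatives), in a setting that moved the median of all genes to -0.32. *Hspa4* (ENSMUSG00000020361, chromosome 11) had an RPKM of 33.65, 36.25 and 34.97 in WT and 37.82, 33.59 and 35.74 in *Mll1KO*. *Hsph1* (ENSMUSG00000029657, chromosome 5) had 11.78, 12.67 and 10.95 in WT and 12.29, 10.44 and 11.39 in *Mll1KO*. In both genes the genotypes were interleaved. The log2 fold change was 0.03 for *Hspa4* (95% interval -0.08 to 0.14, limma adjusted p = 0.718) and -0.05 for *Hsph1* (95% interval -0.20 to 0.10, limma adjusted p = 0.643), and a p that misses the threshold does not show that values did not differ.

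*Hspa5* (ENSMUSG00000026864, chromosome 2) encodes BiP, the HSP70 of the endoplasmic reticulum, and *Hspa9* (ENSMUSG00000024359, chromosome 18) encodes mortalin, the HSP70 of mitochondria. The RPKM of *Hspa5* was 74.42, 85.31 and 78.02 in WT and 83.97, 71.88 and 78.37 in *Mll1KO*. That of *Hspa9* was 33.49, 34.5 and 34.43 in WT and 35.51, 34.54 and 34.76 in *Mll1KO*. *Hspa5* varied more within each genotype than between them. The *Hspa9* values of *Mll1KO* were all above those of WT, but the closest pair of libraries was almost level. The log2 fold change was -0.02 for *Hspa5* (95% interval -0.17 to 0.12, limma adjusted p = 0.843) and 0.03 for *Hspa9* (95% interval -0.05 to 0.12, limma adjusted p = 0.568).

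Of the HSP90 genes, *Hsp90ab1* (ENSMUSG00000023944, chromosome 17), the constitutive cytosolic form, gave the most abundant RNA of the 10 chaperones. Its RPKM was 232.3, 226.5 and 227.1 in WT and 227.5, 215.6 and 219.1 in *Mll1KO*. *Hsp90aa1* (ENSMUSG00000021270, chromosome 12), the inducible cytosolic form, had 58.87, 59.93 and 56.94 in WT and 64.12, 62.59 and 59.92 in *Mll1KO*. *Hsp90b1* (ENSMUSG00000020048, chromosome 10) encodes GRP94 of the endoplasmic reticulum. Its RPKM was 76.26, 75.68 and 70.63 in WT and 78.18, 70.1 and 78.85 in *Mll1KO*. In each of these genes the genotypes overlapped, in *Hsp90aa1* by the closest margin, with the lowest *Mll1KO* library just under the highest WT library. The log2 fold change was -0.05 for *Hsp90ab1* (95% interval -0.14 to 0.04, limma adjusted p = 0.402), 0.09 for *Hsp90aa1* (95% interval -0.01 to 0.18, limma adjusted p = 0.163) and 0.03 for *Hsp90b1* (95% interval -0.09 to 0.15, limma adjusted p = 0.751). The cytosolic HSP90 RNA of *Hsp90aa1* and *Hsp90ab1* together was 287.2 ± 3.63 RPKM in WT and 282.9 ± 7.54 RPKM in *Mll1KO* (SD, n = 3), which is within the replicate spread.

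*Dnajb1* (ENSMUSG00000005483, chromosome 8) encodes HSP40, the J-domain partner of cytosolic HSP70 in the heat shock response. Its RPKM was 19.43, 21.43 and 23.1 in WT and 22.94, 19.61 and 22.34 in *Mll1KO*. The genotypes overlapped fully, and the log2 fold change was 0.02 (95% interval -0.14 to 0.18, limma adjusted p = 0.871).

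**Figure D1:**
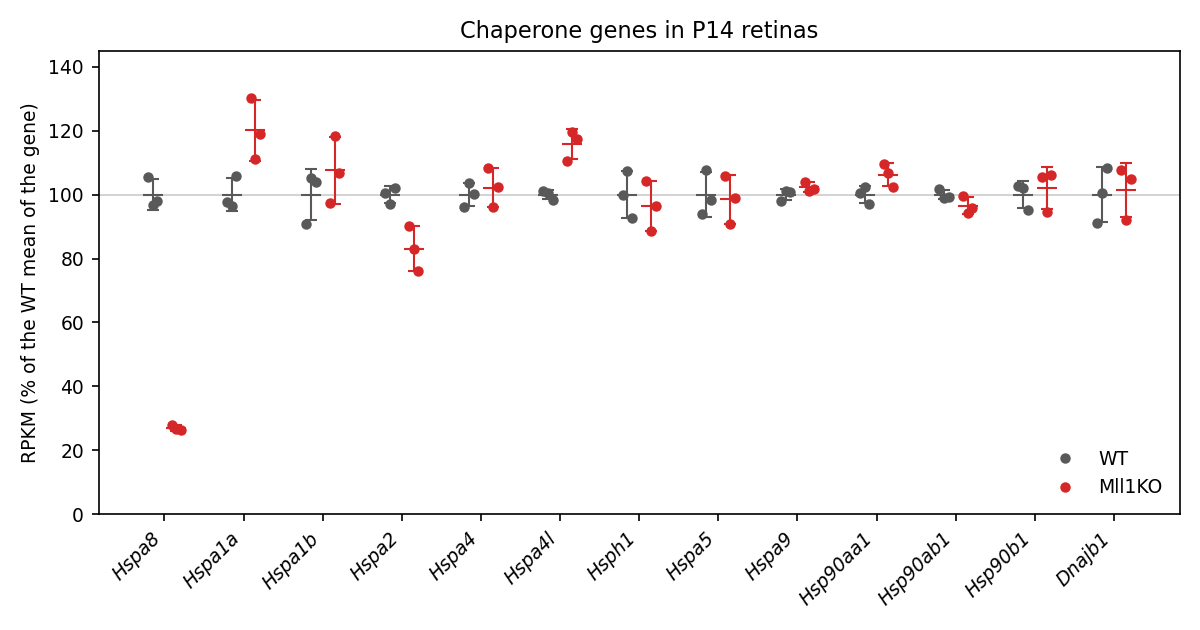
RPKM of the 10 chaperones and of *Hspa1a*, *Hspa1b* and *Hspa2* in each library, as a percentage of the WT mean of the gene (points, libraries; horizontal marks and bars, mean and SD of 3 libraries; grey, WT; red, *Mll1KO*). The 3 *Mll1KO* points of *Hspa8* lie around 26.95% of the WT mean, away from every point of the other genes drawn.

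By RPKM, which is per kilobase, the WT order was *Hsp90ab1*, then *Hspa5* (79.3 ± 5.55), *Hsp90b1* (74.2 ± 3.10) and *Hspa8* (68.8 ± 3.27), then *Hsp90aa1* (58.6 ± 1.52; SD, n = 3). *Hspa5* and *Hsp90b1* did not differ beyond their spread, nor did *Hsp90b1* and *Hspa8*. *Hspa4* (35.0 ± 1.30) and *Hspa9* (34.1 ± 0.563) followed at levels not separated by their spread, then *Hspa4l* (22.8 ± 0.351) and *Dnajb1* (21.3 ± 1.84), also not separated, and *Hsph1* (11.8 ± 0.862) last. In *Mll1KO* the other 9 genes kept this order and *Hspa8* moved from the fourth to the ninth place, between *Dnajb1* (21.6 ± 1.78) and *Hsph1* (11.4 ± 0.922), whose values it did not overlap. The 10 genes summed to 634.5 ± 7.95 RPKM in WT and 585.4 ± 21.4 RPKM in *Mll1KO* (SD, n = 3), or 92.3% of WT. Without *Hspa8* the sums were 565.7 ± 8.54 and 566.8 ± 21.0 RPKM, or 100.2% of WT.

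Around the 10 chaperones stand 135 further genes of protein folding, stress response and clathrin uncoating, in 10 lists, of which 124 were listed. Limma called 11 of these as higher and 11 as lower in *Mll1KO* (17.74%, against 23.3% of all genes), with a median log2 fold change near 0 (-0.004). The even split moved with the scaling, to 14 higher and 6 lower with TMM or upper-quartile factors and to 16 and 6 with RLE factors. The count rested in part on single libraries, being 9 without WT sample b, 10 without *Mll1KO* sample c, and 14 without WT sample a or without *Mll1KO* sample b. Scaling to equal rod RNA called 0 as higher and 108 as lower.

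Of the other HSP70 and HSP90 genes 8 of 10 were listed, and *Hspa1a*, *Hspa2* and *Trap1* were the 3 that limma called. *Trap1*, the mitochondrial HSP90, had an RPKM of 30.2 ± 0.169 in WT and 26.8 ± 1.66 in *Mll1KO* (SD, n = 3), lower in 3 of 3 samples (log2 fold change -0.17, limma adjusted p = 0.0302). Here and below, 3 of 3 samples means that the values of the genotypes did not overlap, as in 41.1% of all genes. All 31 of the other J-domain genes were listed, 4 called as higher and 2 as lower. *Dnajc27*, a J-domain GTPase, rose (0.18, limma adjusted p = 0.00684), as did *Dnajb2*, a neuronal J-domain protein (0.19, limma adjusted p = 0.0214), each in 3 of 3 samples. *Dnajb6* (-0.18, limma adjusted p = 0.031) and *Dnajc7* (-0.14, limma adjusted p = 0.0352) were lower in 3 of 3 samples. Of the 13 nucleotide exchange and partner factors, which include the BAG proteins and *Stub1*, limma called 0, with 1 higher and 1 lower at an unadjusted p under 0.05 and 0 by limma-voom.

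Among HSP90 cochaperones 19 of 20 were listed, 1 called as higher and 2 as lower. *Fkbp5*, an immunophilin that rises with glucocorticoids, was at 4.31 ± 0.16 RPKM in WT and 5.68 ± 0.757 RPKM in *Mll1KO* (SD, n = 3; log2 fold change 0.32, limma adjusted p = 0.0162). *Cdc37l1* (-0.18, limma adjusted p = 0.0283) and *Ppp5c* (-0.13, limma adjusted p = 0.035) were lower in 3 of 3 samples. Of 16 chaperonin and prefoldin genes 15 were listed, and the TRiC subunit *Cct2* was the 1 called (-0.17, limma adjusted p = 0.0113). Small heat shock proteins had 4 of 7 genes listed, of which limma called 0, with 3 higher and 1 lower at an unadjusted p under 0.05 and 2 called by limma-voom on reads. Their median of 0.29 included *Cryaa*, which is also a lens gene and whose RPKM was 6.54, 6.61 and 7.51 in WT and 32.1, 12.4 and 7.28 in *Mll1KO*. The calls of *Trap1*, *Dnajc7*, *Cdc37l1* and *Ppp5c* were lost with TMM factors, at adjusted p of 0.0653, 0.0936, 0.0547 and 0.109, and those of *Dnajb6* with a replicate block at 0.0667.

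The heat shock factors *Hsf1* and *Hsf2* drive or modulate transcription of many chaperone genes. *Hsf1* had an RPKM of 30.5 in WT and 29.97 in *Mll1KO* (log2 fold change -0.03, limma adjusted p = 0.804), and *Hsf2* had 10.3 and 10.5 (0.03, limma adjusted p = 0.764). *Hsbp1*, whose product binds heat shock factor 1, was lower, at 136.3 ± 1.98 RPKM in WT and 119.6 ± 3.99 RPKM in *Mll1KO* (SD, n = 3; -0.19, limma adjusted p = 0.00875), and was the 1 call among the 3 of 5 genes listed. Of core targets of heat shock factor 1 outside the 10 members, 14 of 15 were listed, and *Hspa1a* was the 1 gene called. Of the 25 of 27 genes listed for endoplasmic reticulum chaperones and the unfolded protein response, 3 were called as higher and 2 as lower. *Herpud1*, a component of the degradation machinery of that organelle, was at 17.1 ± 0.223 RPKM in WT and 21.1 ± 0.517 RPKM in *Mll1KO* (SD, n = 3; 0.29, limma adjusted p = 0.000955), and *Ddit3*, the stress factor CHOP, was higher too (0.20, limma adjusted p = 0.0137). The disulfide isomerase *Pdia4* (-0.26, limma adjusted p = 0.00353) and the secreted factor *Manf* (-0.26, limma adjusted p = 0.0125) were lower in 3 of 3 samples, beside the uncalled *Hspa5* and *Hsp90b1* of the same organelle.

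Clathrin coat removal is a task of HSC70 with auxilin, the product of *Dnajc6*. Of 12 genes for clathrin coats, uncoating and chaperone-mediated autophagy 12 were listed, 3 called as higher and 1 as lower. *Dnajc6* (0.14, limma adjusted p = 0.0409) and the synaptojanin gene *Synj1* (0.14, limma adjusted p = 0.0187) were higher and the adaptor subunit *Ap2m1* (-0.25, limma adjusted p = 0.00311) lower in 3 of 3 samples each. The call of *Dnajc6* was lost with a replicate block (adjusted p = 0.0751). Scaled to equal rod RNA, the increases of *Dnajc27*, *Dnajb2*, *Herpud1*, *Ddit3*, *Dnajc6* and *Synj1* turned negative, while relative to the median of all genes in that setting they were 0.18, 0.20, 0.30, 0.20, 0.14 and 0.14.

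Leaving out a single library ended many of these partner calls. The calls of *Dnajc7* and *Ppp5c* were lost whichever library was left out (limma adjusted p up to 0.11 without *Mll1KO* sample b, and up to 0.0865 without *Mll1KO* sample c). Those of *Trap1*, *Hspa2* and *Dnajc6* were lost without any library but *Mll1KO* sample a, up to 0.105, 0.108 and 0.144. *Hspa1a* lost its call without WT sample a (0.106), WT sample b (0.128), *Mll1KO* sample a (0.104) or *Mll1KO* sample c (0.0936). *Dnajb6* lost it without WT sample b (0.104), WT sample c (0.0896), *Mll1KO* sample b (0.0773) or *Mll1KO* sample c (0.0881), and *Cdc37l1* without WT sample b (0.113), WT sample c (0.0662), *Mll1KO* sample a (0.0598) or *Mll1KO* sample c (0.104). *Dnajb2* lost it without WT sample a (0.0655), WT sample c (0.0515) or *Mll1KO* sample a (0.0537), and *Synj1* without WT sample b (0.0698) or *Mll1KO* sample c (0.0744). *Cct2* (0.0545) and *Manf* (0.0555) lost it without WT sample b, *Fkbp5* without WT sample a (0.0573) and with equal rod RNA (0.584), and *Ddit3* without *Mll1KO* sample c (0.0578). The calls of *Dnajc27*, *Hsbp1*, *Pdia4*, *Herpud1* and *Ap2m1* were kept without each single library.

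Markers of retinal cell types moved between the genotypes beside these chaperones, and their part in the values of *Hspa8*, *Hspa4l* and the called partners was not tested. Of rod markers 10 of 10 were listed, 8 called by limma as higher and 1 as lower. Cone markers (7 of 7 listed, 6 higher and 1 lower, the lower one being *Opn1sw*, the most abundant in WT, while *Opn1mw* was in *Mll1KO*) summed to 309.9, 321.9 and 339.3 RPKM in WT and 379.3, 399.8 and 414.5 in *Mll1KO*. Muller glia markers (9 of 9 listed, 5 higher and 2 lower, led, here and below in the sense of the highest WT mean, by *Glul*) summed to 1452, 1438 and 1584 RPKM in WT and 1825, 1911 and 1877 in *Mll1KO*. Astrocyte markers (3 of 4 listed, all 3 higher, led by *Gfap* and *S100b* at 4.12 RPKM each in WT, without *Pax2*) summed to 10.6, 11.5 and 11.7 RPKM in WT and 19.4, 18.9 and 18.9 in *Mll1KO*. In the cone, Muller glia and astrocyte lists every *Mll1KO* sum was above every WT sum.

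The inner retinal lists of amacrine, horizontal and ganglion cells differed among themselves, and that of bipolar cells is not described here. Amacrine markers (9 of 9 listed, 2 higher and 5 lower, led by *Calb2*) summed to 495.0, 499.0 and 513.8 RPKM in WT and 435.4, 409.3 and 425.8 in *Mll1KO*. Most of that difference was *Calb2* itself, at 254.8 ± 11.0 RPKM in WT and 180.1 ± 17.9 RPKM in *Mll1KO* (SD, n = 3). Without it the amacrine sums were 252.7, 239.5 and 251.0 RPKM in WT and 235.9, 232.7 and 261.6 in *Mll1KO*, which overlap. Of these 8 genes *Gad1* and *Slc6a9* were called as higher and *Gad2*, *Pax6*, *Tfap2a* and *Tfap2b* as lower. Horizontal cell markers (6 of 7 listed, 0 higher and 5 lower by limma, led by *Sept4*, without *Lhx1*) summed to 110.1, 112.7 and 108.7 RPKM in WT and 79.5, 81.7 and 84.6 in *Mll1KO*. Ganglion cell markers (10 of 10 listed, 0 higher and 9 lower by limma, led by *Sncg* in WT and by *Thy1* in *Mll1KO*) summed to 638.6, 599.1 and 627.2 RPKM in WT and 498.1, 451.4 and 424.1 in *Mll1KO*. In the horizontal and ganglion cell lists every *Mll1KO* sum was below every WT sum, at 74.1% and 73.7% of WT. *Sept4* and *Prox1* led the horizontal sum, with WT means of 55.5 and 37.1 RPKM. By gene, *Mll1KO* means ranged from 52.1% (*Onecut1*) to 90.9% (*Calb1*, not called) of WT in the horizontal list. In the ganglion cell list they ranged from 44.3% (*Pou4f2*) to 89.7% (*Slc17a6*, not called).

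Lists of cells around the neural retina moved in other ways. Endothelial markers (6 of 6 listed, 1 higher and 2 lower, led by *Kdr*) summed to 84.2, 82.5 and 80.4 RPKM in WT and 66.4, 59.6 and 60.3 in *Mll1KO*. Most of that difference was *Kdr* itself, with means of 37.6 RPKM in WT and 22.3 RPKM in *Mll1KO*. The other gene called as lower was *Cldn5* (25.15 and 19.49 RPKM), while *Cdh5* and *Pecam1* were not called. Microglial markers (4 of 7 listed, led by *C1qb*, without *P2ry12*) had 0 genes called by limma, 0 at an unadjusted p under 0.05, and sums of 17.1, 17.2 and 16.7 RPKM in WT and 15.8, 17.4 and 18.3 in *Mll1KO*. Pigment epithelium genes (3 of 8 listed, led by *Pmel* in the WT mean and by *Dct* in that of *Mll1KO*; 0 called by limma, 1 lower at an unadjusted p under 0.05) varied with the library, with 126.7, 35.4 and 206.7 RPKM in WT and 32.9, 93.7 and 37.3 in *Mll1KO*. Of lens genes 1 of 8 was listed, *Cryaa*.

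The position of *Hspa8* near *Kmt2a* was part of the choice. Its end lies 3.99 Mb before the annotated start of *Kmt2a* on chromosome 9, with 35 listed genes starting between them, of which limma called 5 as higher and 9 as lower (40%, median log2 fold change -0.02). Within 5 Mb of *Kmt2a*, without *Kmt2a* and *Hspa8*, 62 genes were listed, 10 called as higher and 13 as lower (37.1%, median -0.06), or 11 and 8 with TMM, RLE or upper-quartile factors. On the rest of chromosome 9 the shares were 55 higher and 98 lower of 598 genes (25.59%, median -0.04), and on other chromosomes 932 higher and 1531 lower of 10667 genes (23.09%, median -0.03). Without *Mll1KO* sample c the count within 5 Mb was 15 in place of 23, and with libraries scaled to equal rod RNA it was 55, of which 2 were higher. The 3 *Mll1KO* samples share the floxed locus, with the sequence linked to it, and the loss of MLL1, and effects of these cannot be told apart.

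The genes closest to *Hspa8* had fold changes between -0.13 and 0.08. Within 1 Mb of it, a window chosen after the data were seen, limma called 0 of 5 listed genes, with 0 at an unadjusted p under 0.05, beside 23.3% of all genes called, a share from which little can be read in 5 genes. In 1 of the 5, *Scn3b*, each *Mll1KO* value was below each WT value, against 41.1% of all genes that did not overlap. *Clmp*, which encodes an adhesion molecule and starts 115 kb before *Hspa8*, had a log2 fold change of -0.13 (95% interval -0.26 to 0.01, limma adjusted p = 0.168). The ion channel subunit gene *Scn3b* was at -0.06 (95% interval -0.18 to 0.06, limma adjusted p = 0.44) and *Gramd1b* at -0.02 (95% interval -0.11 to 0.06, limma adjusted p = 0.708). On the side towards *Kmt2a*, *Ubash3b* was at 0.08 (95% interval -0.06 to 0.22, limma adjusted p = 0.418) and *3110039I08Rik* at 0.06 (95% interval -0.07 to 0.20, limma adjusted p = 0.491).

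Within 5 Mb of *Kmt2a*, *Mfrp* and *Rnf26* had the lowest fold changes after *Hspa8*, and both start about 0.70 Mb from *Kmt2a*. The ubiquitin ligase gene *Rnf26* had an RPKM of 2.907, 2.992 and 3.096 in WT and 1.507, 1.883 and 1.702 in *Mll1KO*, a full separation (log2 fold change -0.57, limma adjusted p = 0.000243). *Mfrp*, a gene of the pigment epithelium, had 5.209, 2.42 and 6.007 in WT and 1.693, 2.981 and 1.879 in *Mll1KO*. Its genotypes overlapped, and its low WT sample b and high *Mll1KO* sample b repeat the order of the pigment genes, whose part in it was not tested (-0.76, limma adjusted p = 0.0465, lost with TMM factors at 0.055, without WT sample a at 0.147 and without WT sample c, *Mll1KO* sample a or *Mll1KO* sample c at 0.134, 0.122 and 0.132). The highest fold changes there were those of *2900052N01Rik* (1.27, limma adjusted p = 6.36e-06), *Usp2* (0.51, limma adjusted p = 0.00252) and *Tmem136* (0.42, limma adjusted p = 6.61e-05, lost with equal rod RNA at 0.0773), each higher in 3 of 3 *Mll1KO* samples.

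**Figure D2:**
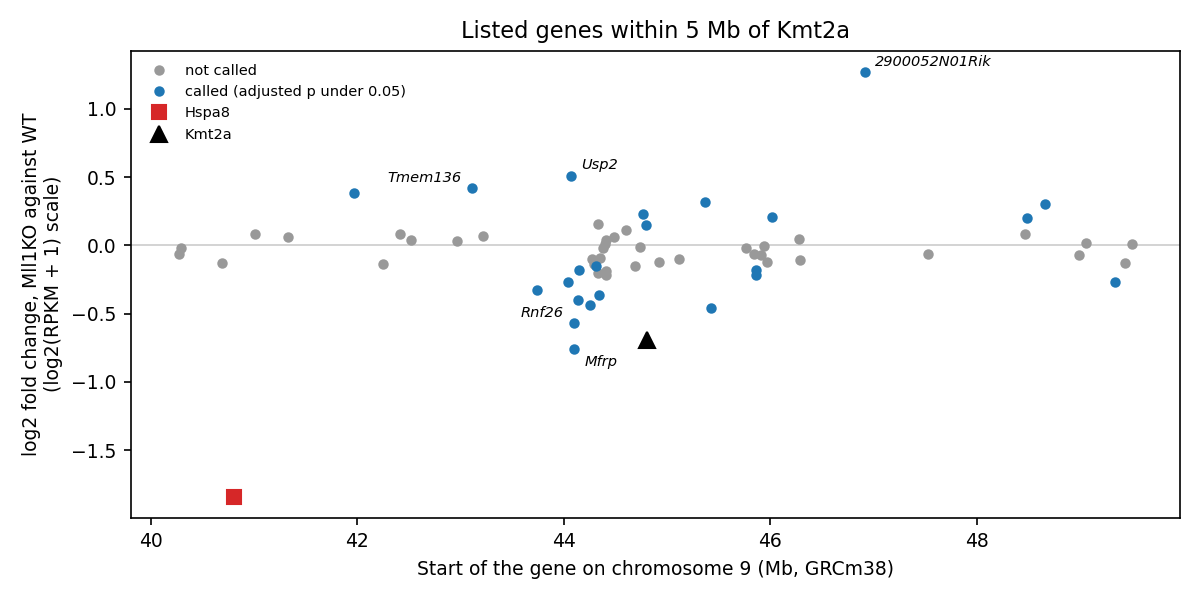
Log2 fold change between *Mll1KO* and WT (y axis, log2(RPKM + 1) scale, from 3 samples of each genotype) of the genes listed within 5 Mb of *Kmt2a*, by annotated start on chromosome 9 (x axis, Mb, GRCm38); blue points were called by limma at an adjusted p under 0.05, grey points were not. *Hspa8* (red square) is at -1.84 and *Kmt2a* (black triangle) at -0.69, and points above and below 0 are mixed between them.

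Among the 5 genes most like *Hspa8*, by Pearson correlation of log2(RPKM + 1) over the 6 libraries, the 4 described here are *Meis1*, *Robo2*, *Eef1a1* and *Rbpms2*. No coefficient is given, since the libraries form a cluster for each genotype and any gene that differs between these with little spread ranks high. The homeobox gene *Meis1* had 9.39 ± 0.0208 RPKM in WT and 6.21 ± 0.0819 RPKM in *Mll1KO* (SD, n = 3). The axon guidance receptor *Robo2* had 9.74 ± 0.0377 and 6.81 ± 0.137 RPKM, and the elongation factor *Eef1a1* 164.9 ± 1.26 and 145.2 ± 1.03 RPKM. *Rbpms2* had 17.6 ± 0.143 and 9.0 ± 0.48 RPKM. None of these 4 is a chaperone of the lists.

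Reads of 50 bases from a chaperone can also match copies elsewhere, so each 50-base stretch of a member's transcripts was looked up in the transcripts of all other annotated genes. How reads with several matches were counted is not stated in the sources used. The order of the chaperones by RPKM and the share of *Hspa8* in the cytosolic HSP70 sum were not tested under other rules. Of the 2345 stretches of the main *Hspa8* transcript 74.84% occurred exactly in transcripts of other genes. Over all 10 annotated *Hspa8* transcripts the share was 39.38% of 4749 stretches, found in 16 other genes, 12 of them pseudogenes and 0 of them in the deposited table. The closest copy, *Gm15459* on chromosome 5, held 1642 of the 4749. The exons of *Hspa8* also overlap those of the small nucleolar RNA genes *Snord14c*, *Snord14d* and *Snord14e*, which lie within it (6.09% of its exon bases). The overlap with exons of other genes was 15.67% for *Hsp90b1* and 19.01% for *Hspa1a*.

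*Hsp90aa1* shared 65.64% of its main transcript and 47.49% over all its transcripts, led by the pseudogene *Gm12346* on chromosome 11 with 1664 of the 3982 stretches of all its transcripts, and its RPKM in *Mll1KO* was 106.2% of WT. *Hspa1a* and *Hspa1b* shared 1716 stretches with each other (58.81% and 62.31% of their own), and with all other genes together 66.31% and 62.31%. The share was 13.8% for *Hsp90b1*, 4.49% for *Hsp90ab1*, 4.1% for *Hspa9*, 0.626% for *Hspa4l* and 0.441% for *Dnajb1*. For *Hspa4*, *Hspa5*, *Hsph1* and *Hspa2* it was 0. By main transcript *Hspa8* thus had the highest share of the 10 and *Hsp90aa1* the second, an order that turned over all transcripts.

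The lines that follow show, for these paralogues, how a stretch that *Hspa8* shares with its pseudogenes compares with the same codons of *Hspa1a*, *Hspa1b* and *Hspa2*. The *Hspa8* stretch (GRCm38 chr9:40804638-40804687, plus strand) is found without a mismatch in 9 other annotated genes, among them *Gm15459*. Those of *Hspa1a* (chr17:34970179-34970228, minus strand) and *Hspa1b* (chr17:34957261-34957310, minus strand) are identical to each other and differ from it at 13 of 50 bases. That of *Hspa2* (chr12:76406240-76406289, plus strand) differs from it at 14. Capitals mark bases that differ from *Hspa8*, and the sequences are from GENCODE vM21 transcripts, written 5′ to 3′.
Hspa8: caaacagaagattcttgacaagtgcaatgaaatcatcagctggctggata
Hspa1a: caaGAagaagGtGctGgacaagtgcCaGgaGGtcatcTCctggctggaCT
Hspa1b: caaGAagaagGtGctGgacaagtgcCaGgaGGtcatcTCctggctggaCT
Hspa2: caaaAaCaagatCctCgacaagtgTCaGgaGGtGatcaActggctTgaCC

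Between the cytosolic HSP90 genes the corresponding comparison is shown by a stretch of *Hsp90aa1* (GRCm38 chr12:110693770-110693819, minus strand) that occurs exactly in 3 other annotated genes, all pseudogenes. The same codons of *Hsp90ab1* (chr17:45569720-45569769, minus strand) differ at 9 bases, marked in capitals, again from GENCODE vM21 transcripts, 5′ to 3′.
Hsp90aa1: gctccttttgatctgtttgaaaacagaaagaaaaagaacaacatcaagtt
Hsp90ab1: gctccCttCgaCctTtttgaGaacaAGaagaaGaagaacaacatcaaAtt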

How the data were processed

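Per the labels, RNA of P14 retinas was aligned with STAR 2.0.4b to mm10 and counted per gene with Subread featureCounts 1.45. Genes had to exceed a CPM of 5 in 5 or more samples to be kept by the authors. Deposited values are RPKM, scaled to gene length and library total, 1 per gene and library. The table's logFC, logCPM, PValue and FDR columns hold the authors' edgeR 3.17.9 comparison and were not used. The paper's methods name the edgeR version and the genome build differently from the labels. Strand and the handling of multi-mapped reads are not given in the sources used.

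The table's 11404 lines held 11339 genes, since 59 IDs stood in more than 1 line with equal RPKM. Of these genes 11329 matched GENCODE vM21. Library totals and gene lengths were recovered as the values that give whole reads within 0.05 reads (11339 genes), 260 genes allowing more than 1 length.

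Genotypes, taken from sample titles, were compared with limma 3.58.1 (R 4.3.3) on log2(RPKM + 1) with a variance trend, with Benjamini-Hochberg adjustment over all genes at 0.05. The alternatives were pseudocounts of 0.1 and 5, a mean RPKM of at least 1, TMM, RLE and upper-quartile factors, equal sums over the rod markers, limma-voom on recovered reads, a replicate block, and leaving out each library. The members and lists were chosen with earlier results of these data known. Genes named are the members, *Kmt2a*, *Hspa1a*, *Hspa1b*, *Hsf1* and *Hsf2*, up to 2 called genes in each direction of each of 10 lists with the highest and lowest fold change, the 3 lowest and 3 highest within 5 Mb of *Kmt2a*, 5 most correlated with *Hspa8* (4 are reported) and its neighbours in rank. The 1 Mb window around *Hspa8* and its genes were added after the data were seen. Shared 50-base stretches were exact matches on either strand of annotated transcripts, without introns or unannotated genome. The procedure was also run on simulated data, and the outcome is not given here. Tables were made in Python 3.11.15 with pandas 2.3.3 and numpy 2.4.6, and figures with matplotlib 3.10.9.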

Additional observations from a re-analysis of the deposited data

How the results depend on the processing

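*Hspa8* kept its direction in all 15 alternatives, and *Hspa4l* kept its direction and call in all but the scaling to equal sums over rod markers. That scaling moved the median of the 11339 fold changes (log2) from -0.03 to -0.32, since rod RNA was higher in *Mll1KO*, and changed 9890 genes in place of 2643, of which 1.99% were higher. Under it 8 of the 9 members other than *Hspa8* were called, all lower. So were 108 genes of the pathway lists, all lower, and 55 near *Kmt2a*, of which 2 were higher. The fold change turned to -0.29 for *Hspa4* and *Hspa9*, -0.11 for *Hspa4l*, -0.24 for *Hsp90aa1* and -0.30 for *Hsp90b1* and *Dnajb1*. Relative to the median these 6 were at 0.03, 0.03, 0.21, 0.08, 0.02 and 0.03, and *Hspa8* at -1.83. It also turned *Hspa1a* (-0.05), *Hspa1b* (-0.19), *Hsf2* (-0.27), *Dnajc27* (-0.14), *Dnajb2* (-0.12), *Ddit3* (-0.12), *Herpud1* (-0.02), *Dnajc6* (-0.18), *Synj1* (-0.18), *3110039I08Rik* (-0.20) and *Ubash3b* (-0.20).

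TMM, RLE and upper-quartile factors each turned *Hspa5*, *Hsf1* and *Gramd1b* to 0.01, from values near 0. They also gave 51.9%, 53.1% and 52.7% of changed genes as higher in place of 37.8%. With 1 library left out, the fold change ranged from -0.01 to 0.07 for *Hspa4*, -0.08 to 0.04 for *Hspa5*, -0.01 to 0.08 for *Hsp90b1*, -0.10 to 0.01 for *Hsph1*, -0.04 to 0.09 for *Dnajb1*, -0.09 to 0.04 for *Hsf1* and -0.01 to 0.07 for *Hsf2*. Changed genes then numbered 1704 (without WT sample b) to 2536, with 1757 without *Mll1KO* sample c. The pathway lists had 9 (without WT sample b) to 18 calls, with 10 without *Mll1KO* sample c and 14 without WT sample a or without *Mll1KO* sample b, and the genes near *Kmt2a* 15 (without *Mll1KO* sample c) to 22. Fewer samples leave less to test with, and further causes were not tested. Over 51 named genes, 635 of the values under the alternatives kept direction and side of the threshold, 38 changed sign, 80 lost a call and 10 gained one, and 2 values of *Hspa8*, which has no test, moved by more than the replicate spread.

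No pairing of the samples by letter was seen, since 0 libraries correlated best with the library of their own letter. With 3 libraries of each genotype, this check does not show that pairing was absent. With the letter as a replicate block 2242 genes were changed, 1 of the 9 members other than *Hspa8* was called, the genes near *Kmt2a* gave 22 calls in place of 23, the pathway lists 16 in place of 22, and the J-domain list 3 in place of 6. The members had at least 881 reads in each library, and each genotype had 3 samples. How depth or the number of samples bears on the calls was not tested.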
